A study of Mus musculus with 3 samples.

Results

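Among bone-lining cells (BLCs) of wild-type mice, 1798 of 19482 cells expressed Acan, the gene of the cartilage proteoglycan aggrecan, together with a signature led by Lef1, Notum and Sfrp5. A cell was counted as a Lef1/Notum/Sfrp5 cell when it held unique molecular identifiers (UMIs, each standing for 1 captured transcript) of at least 3 of the 6 genes Lef1, Notum, Sfrp5, Rgs6, F13a1 and Wfdc2, and at least 1 UMI of Acan. It also had to hold fewer than 3 UMIs of Prkg2, under 1% of its UMIs from Ibsp, fewer than 3 of the 4 genes Sfn, Krt16, Dhrs9 and Tnfaip6, and no UMI of Ptprc, the gene of CD45. These genes chose the cells, so their levels are given below as a description, with no test.

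The data were droplet single-cell RNA-seq profiles of 3 libraries, replicates 1, 2 and 3 of 1 group. Femora, tibias and iliac bones of wild-type mice, young adults per the study's methods, were flushed of marrow and digested with collagenase. Cells were stained for CD45, Ter119, CD31, Alcam and Sca-1 and sorted, and the labels call the sorted fraction Alcam BLCs of bone marrow. They name no treatment, animal, batch or date, so p-values measure only how differences between populations varied over these libraries.

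Wnt ligands bind frizzled and LRP receptors and stabilise β-catenin, which activates transcription together with TCF and LEF factors, of which Lef1 encodes one. Axin2, Nkd1, Rnf43 and Lgr5 are widely used as read-outs of this signal, and Notum and Sfrp5 encode secreted antagonists: Notum removes the lipid that Wnt ligands need, and the Sfrp proteins bind the ligands. In the growth plate, chondrocytes of the resting zone make parathyroid hormone-related protein (Pthlh), which holds back hypertrophy, while cells of the joint surface make the lubricant proteoglycan 4 (Prg4).

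The Lef1/Notum/Sfrp5 cells numbered 32, 775 and 991 in replicates 1, 2 and 3. They made up 1.27% of the cells of replicate 1 (exact 95% binomial interval 0.868% to 1.78%), 11.5% of those of replicate 2 (10.8% to 12.3%) and 9.69% of those of replicate 3 (9.12% to 10.3%). The mean share was 7.49 ± 5.47% (SD, n = 3), and 10.6% without replicate 1. Of the cells with an Acan UMI alone, they were 4.99%, 13.1% and 11.3%. Thus replicate 1 was low on both denominators, and the spread between libraries was of the size of the mean itself. The intervals cover counting error only.

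Replicate 1 stood apart in other ways as well. Its 32 Lef1/Notum/Sfrp5 cells had a median of 5687.5 UMIs, against 11739 and 7466 in replicates 2 and 3, and the Col2a1 level summed over them was 1080 CPM (UMIs of a gene per 1000000 UMIs, summed over the cells of a population in a library) against 22130 and 19093. Col2a1, the main collagen of cartilage, was also low in the Cilp-high (553 CPM) and other Acan cells (329 CPM) of replicate 1, populations described below. It was found in 20 of the 32 Lef1/Notum/Sfrp5 cells of replicate 1, and in 775 of 775 and 988 of 991 in replicates 2 and 3. Ptprc-positive cells (at least 2 Ptprc UMIs) held it in 4 of 95, 83 of 84 and 114 of 117. Thus Col2a1 was counted well beyond Acan cells in replicates 2 and 3. The part of that in the levels was not tested. No barcode of a Lef1/Notum/Sfrp5 cell occurred in more than 1 library, while 5, 9 and 28 barcodes were shared by the pairs of libraries over all cells. Of the 1798 cells, 221 held at least 3 markers of another cell type list, and 80 held a UMI of the proliferation genes Mki67 or Top2a.

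The signature genes lay on 6 chromosomes (GRCm38, GENCODE M21). Lef1 spans 131110471 to 131224356 on chromosome 3, Notum 120653788 to 120661175 on chromosome 11 and Sfrp5 42197971 to 42202252 on chromosome 19. Rgs6, which encodes a regulator of G protein signalling, spans 82588292 to 83162056 on chromosome 12. F13a1, the A subunit of the transglutaminase coagulation factor XIII, spans 36867178 to 37050244 on chromosome 13, and Wfdc2, a small secreted protein with whey acidic protein domains, 164562413 to 164568510 on chromosome 2.

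Lef1 stood at 610, 324 and 315 CPM in replicates 1, 2 and 3, Notum at 213, 185 and 223 CPM and Sfrp5 at 192, 217 and 230 CPM. The last pair differed little between libraries. Rgs6 stood at 341, 263 and 240 CPM, F13a1 at 1084, 566 and 676 CPM and Wfdc2 at 162, 33.0 and 49.8 CPM. Serpina1a, an α1-antitrypsin gene that was not part of the rule, stood at 1097, 248 and 313 CPM. It was found in 202 of 775 and 222 of 991 members of replicates 2 and 3, and in 146 of 417 and 176 of 491 of the Prkg2-high cells described below. After each cell was thinned to 2000 UMIs the shares were 16.1% and 15.1% against 14.9% and 17.9%. For Lef1, Rgs6, F13a1, Wfdc2 and Serpina1a the highest value was that of the 32 cells of replicate 1.

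**Figure D1:**
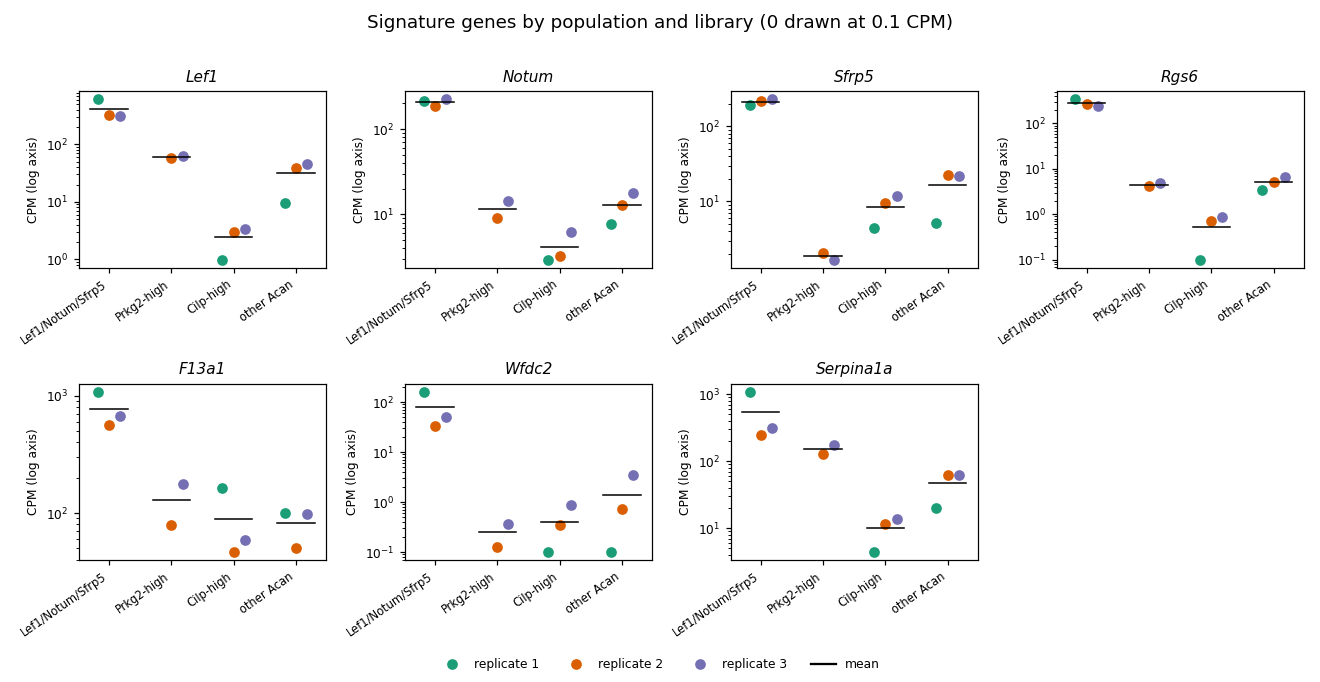
CPM (log axis) of the 6 signature genes and Serpina1a in the Lef1/Notum/Sfrp5 cells and in the 3 comparison populations, 1 point per library and a line at the mean. The Lef1/Notum/Sfrp5 cells are highest in every panel, as 6 of the genes chose them. Lef1 comes next in Prkg2-high cells, at 56.9 and 63.7 CPM.

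Most cells met the rule narrowly. Exactly 3 of the 6 genes were found in 958 cells, 4 in 608, 5 in 221 and all 6 in 11. Lef1 was detected in 1566 of the 1798 cells, Sfrp5 in 1262, Notum in 1254, Rgs6 in 1078, F13a1 in 1070 and Wfdc2 in 247. Just inside the threshold, cells with 3 signature genes held Notum at 124 and 177 CPM in replicates 2 and 3. Just outside it, cells with 2 signature genes that met every other condition held Notum at 82.4 and 108 CPM. The limit on Prkg2, which encodes a cGMP-dependent protein kinase of growth plate chondrocytes, was also near many members: 1281 held no Prkg2 UMI, 339 held 1 and 178 held 2.

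F13a1 is also a gene of macrophages, and the sort was meant to exclude blood cells. In the Ptprc-positive cells of these libraries, F13a1 stood at 250, 365 and 373 CPM. The 13 macrophage markers listed (Csf1r, Adgre1, Mrc1 and others) summed to between 20.5 and 51.2 CPM in the Lef1/Notum/Sfrp5 cells, against 2939 to 5344 CPM in the Ptprc-positive cells. Adgre1, which encodes the macrophage antigen F4/80, was at 0, 0 and 0.130 CPM against 7.43, 6.22 and 18.4 CPM, and Tyrobp, a signalling adaptor of myeloid cells, at 0, 0.212 and 3.13 CPM against 549, 884 and 904 CPM. F13a1 was measured in cells that held few macrophage transcripts, but the rule allowed them no Ptprc UMI. Their distance from the Ptprc-positive cells, which were chosen by Ptprc, was thus in part fixed beforehand. With no Ptprc UMI either, Prkg2-high cells held 13.7 to 17.0 CPM of the macrophage list. Cilp-high cells held 160 to 882 CPM of it and other Acan cells 90.6 to 595 CPM. The source of F13a1 was not tested.

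The label given to these cells, Wnt-active chondrocytes, was checked against marker lists. Cartilage genes were present: Sox9, the master transcription factor of cartilage, stood at 1336, 1195 and 1356 CPM, and Sox5, its partner, at 755, 747 and 749 CPM. All 18 chondrocyte markers that the rule did not use were detected, but so were they in the Ptprc-positive cells, so detection alone does not set the cells apart. The markers summed to between 17526 and 53618 CPM in the Lef1/Notum/Sfrp5 cells, against 146 to 4292 CPM in the Ptprc-positive cells. Read-outs of Wnt signalling were low: Nkd1 stood at 4.27, 11.2 and 10.2 CPM, Axin2 at 0, 4.14 and 2.74 CPM, Lgr5 at 0, 2.76 and 2.48 CPM and Rnf43 at 0, 0.636 and 1.04 CPM. Nkd1 was found in 10.8% and 7.16% of the members of replicates 2 and 3. The shares were 10.8% and 6.31% of the Prkg2-high cells and 5.51% and 4.40% of the other Acan cells described below. After each cell was thinned to 2000 UMIs, they were 2.08% and 2.18% of the members. They were then 1.20% and 2.26% of the Prkg2-high cells and 1.73% and 1.70% of the other Acan cells. Among the 32 cells of replicate 1, 3 UMIs correspond to 12.8 CPM, so a level of 0 there is no sign of absence. As given below, the 4 read-outs were not called against other Acan cells, while Axin2, Lgr5 and Rnf43 were called higher than in Prkg2-high cells. The cells are called by their leading genes here.

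The Lef1/Notum/Sfrp5 cells were compared with 3 populations of the same libraries that held Acan UMIs and at most 1 signature gene, and met the same conditions on Ibsp, Ptprc and the Sfn set. Prkg2-high cells (913) held at least 3 Prkg2 UMIs. They were too few in replicate 1, at 5 cells, so that comparison rests on replicates 2 and 3. Cilp-high cells (2460) held at least 0.3% of their UMIs from Cilp, a cartilage intermediate layer protein. Other Acan cells (3316) met neither condition. The latter held transcripts of other cell types: 6 erythroid markers summed to between 475 and 1239 CPM in them, against 5.30 to 25.6 CPM in the Lef1/Notum/Sfrp5 cells, and 8 osteoblast markers to between 2033 and 7517 CPM, against 107 to 1011 CPM. All 6 erythroid and 6 of the 8 osteoblast markers were lower in the Lef1/Notum/Sfrp5 cells. The part of such admixed cells in the differences from other Acan cells was not tested. Depth differed too. In replicates 2 and 3 the median was 11739 and 7466 UMIs in the Lef1/Notum/Sfrp5 cells and 19041 and 10968 in Prkg2-high cells. It was 7335.5 and 4798 in Cilp-high cells and 7100 and 4740 in other Acan cells. In replicate 1 the Lef1/Notum/Sfrp5 cells, at 5687.5, lay below Cilp-high (6167) and other Acan cells (6631). The part of depth in the differences was not tested.

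Counts were summed per library and population and tested with edgeR's quasi-likelihood test with the library as a block, over 15284 genes that no rule used. A gene was called at an adjusted p of at most 0.05 and a difference of at least 2-fold. Against Prkg2-high cells 15.2% of all genes tested were called, 10.8% higher in the Lef1/Notum/Sfrp5 cells and 4.38% lower. Against Cilp-high cells 20.3% were called, 11.7% higher and 8.53% lower. Against other Acan cells 9.47% were called, 3.23% higher and 6.24% lower. These shares are the background for the counts of list genes below. Without the library block 2317 calls against Prkg2-high cells became 1502, and 1447 against other Acan cells became 848. Since the Lef1/Notum/Sfrp5 cells were selected among these same cells by genes that vary with others, the calls describe fitted mean differences over the libraries compared and do not show that a separate cell type exists. The 3 comparisons share the Lef1/Notum/Sfrp5 cells.

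Chondrocyte genes were called most often against Cilp-high cells. Of 18 chondrocyte genes tested, 8 were higher than in Cilp-high cells and the other 10 were not called. Against Prkg2-high cells 2 were lower, Epyc and Matn1, and 16 were not called. Against other Acan cells 1 was higher, Cnmd, which encodes chondromodulin, by 1.61 ± 0.38 log2 units (adjusted p = 0.0097). That call was lost without replicate 1 (0.87). Epyc, an epiphycan proteoglycan of the growth plate, stood at 55.5, 53.1 and 43.7 CPM, which was 2.43 ± 0.23 log2 units (SE) below Prkg2-high cells (adjusted p = 1.1e-05) and 3.33 ± 0.29 above Cilp-high cells (adjusted p = 1.2e-06). Col9a1, a collagen that coats collagen II fibrils, was 3.05 ± 0.31 log2 units above Cilp-high cells. For Epyc the Lef1/Notum/Sfrp5 cells thus lay between the Cilp-high and the Prkg2-high cells.

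Genes of the resting zone differed in both directions. Of 13 listed genes tested, 4 were higher than in each of the 3 comparison populations: Pthlh, Spon1, Apoe and Bmp3. Another 2 of the 13, Gas1 and Grem1, were lower than in other Acan cells, and these with Clu, which encodes the chaperone clusterin, were lower than in Cilp-high cells. Against Prkg2-high cells 8 of 13 were higher, among them Gas1, Grem1 and Clu, and 1, Foxa2, was lower. In that comparison the call of Clu was lost without replicate 2 (2.07), and those of Grem1 and Foxa2 without replicate 2 (1.50 and -1.07) and without replicate 3 (1.35 and -1.68). The median difference over the list was 2.18 log2 units against Prkg2-high cells, 0.47 against Cilp-high cells and 0.76 against other Acan cells, beside 0.03, -0.04 and -0.03 over all genes tested.

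Markers of fibroblasts and stress genes moved with the differences from Prkg2-high cells. Of 5 fibroblast markers tested, 4 were higher than in Prkg2-high cells, Cd34, Dpt, Igfbp6 and Ly6c1, with a median of 2.97 log2 units over the 5. The calls of Cd34 (2.29), Dpt (1.93) and Ly6c1 (1.22) were lost without replicate 2, and that of Ly6c1 (1.51) without replicate 3. The 6 listed markers summed to between 64.0 and 81.0 CPM in the Lef1/Notum/Sfrp5 cells and to between 11.2 and 19.8 CPM in Prkg2-high cells, where Clec3b was at 0. In Cilp-high and other Acan cells the sums were higher, at 161 to 261 and 198 to 378 CPM, and 4 and 3 of the 5 were lower in the Lef1/Notum/Sfrp5 cells. Of 14 stress genes 5 were higher than in Prkg2-high cells, and the list summed to between 8906 and 11816 CPM against 5515 to 7287 CPM. The part of such cells and of stress in the differences from Prkg2-high cells, here and in the lists below, was not tested.

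Pthlh, the ligand that restrains hypertrophy, stood at 81.1, 101 and 110 CPM in the Lef1/Notum/Sfrp5 cells of replicates 1, 2 and 3. In other Acan cells it stood at 12.1, 16.1 and 17.0 CPM, in Cilp-high cells at 19.5, 22.1 and 33.8 CPM, and in Prkg2-high cells at 2.97 and 3.52 CPM. No library of a comparison population reached the lowest of the Lef1/Notum/Sfrp5 cells. Genes named from the lists were chosen for a call of the same sign in every library, which makes such a separation likely. The difference was 2.70 ± 0.15 log2 units (SE) against other Acan cells (adjusted p = 2.1e-07), 1.77 ± 0.14 against Cilp-high cells and 4.99 ± 0.20 against Prkg2-high cells. Pthlh was detected in 31.2%, 31.1% and 27.7% of the Lef1/Notum/Sfrp5 cells, and in 9.68%, 11.1% and 16.6% when each cell was thinned to 2000 UMIs, while 2 of 117 Ptprc-positive cells of replicate 3 held it before thinning. In replicates 1 and 2, 0 of 95 and 0 of 84 Ptprc-positive cells did, which allows a share of up to 3.16% and 3.57%. Those cells were the deeper ones, with medians of 23613, 22116 and 12271 UMIs.

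Spon1, which encodes the matrix protein spondin 1, stood at 213, 396 and 372 CPM. Other Acan cells held 53.5, 63.9 and 84.3 CPM, and the groups did not overlap, as the choice of such genes made likely. The difference was 2.30 ± 0.18 log2 units against other Acan cells (adjusted p = 2.9e-06), 4.38 ± 0.20 against Cilp-high cells and 4.73 ± 0.23 against Prkg2-high cells. Bmp3, an antagonist within the BMP family, stood at 8.53, 27.3 and 34.3 CPM, against 6.91, 8.26 and 6.69 CPM in other Acan cells. The 8.53 CPM of replicate 1 came from 2 of 32 cells. It lay under the 12.8 CPM of 3 UMIs there, so that level could not be measured. The difference of 1.98 ± 0.24 log2 units (adjusted p = 7.1e-05) fell to 1.46 and lost its call without replicate 3.

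Apoe, the lipid carrier apolipoprotein E, stood at 1092, 3832 and 3848 CPM, and at 919, 1148 and 1403 CPM in other Acan cells. The groups overlapped through replicate 1. The difference was 1.26 ± 0.33 log2 units (adjusted p = 0.018), and the call was lost without replicate 2 (0.90) and without replicate 3 (1.12). Against Cilp-high cells the difference was 1.62 ± 0.34 (adjusted p = 0.0021), with the call lost without replicate 2 (1.14). Apoe was thus the least stable of the 4.

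Gas1, which encodes a membrane protein that binds hedgehog ligands, went the other way. It stood at 115, 67.0 and 102 CPM in the Lef1/Notum/Sfrp5 cells, at 199, 504 and 432 CPM in other Acan cells, at 757, 1959 and 1807 CPM in Cilp-high cells and at 10.3 and 32.4 CPM in Prkg2-high cells. The order of the 4 populations was the same in replicates 2 and 3. The difference was -2.15 ± 0.37 log2 units against other Acan cells (adjusted p = 0.0012), -4.35 ± 0.39 against Cilp-high cells and 2.26 ± 0.43 against Prkg2-high cells, the last without a call when replicate 2 was left out (1.98). Grem1, a BMP antagonist, stood at 21.3, 10.2 and 8.34 CPM and was 2.86 ± 0.31 log2 units below other Acan cells (adjusted p = 3.5e-05).

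**Figure D2:**
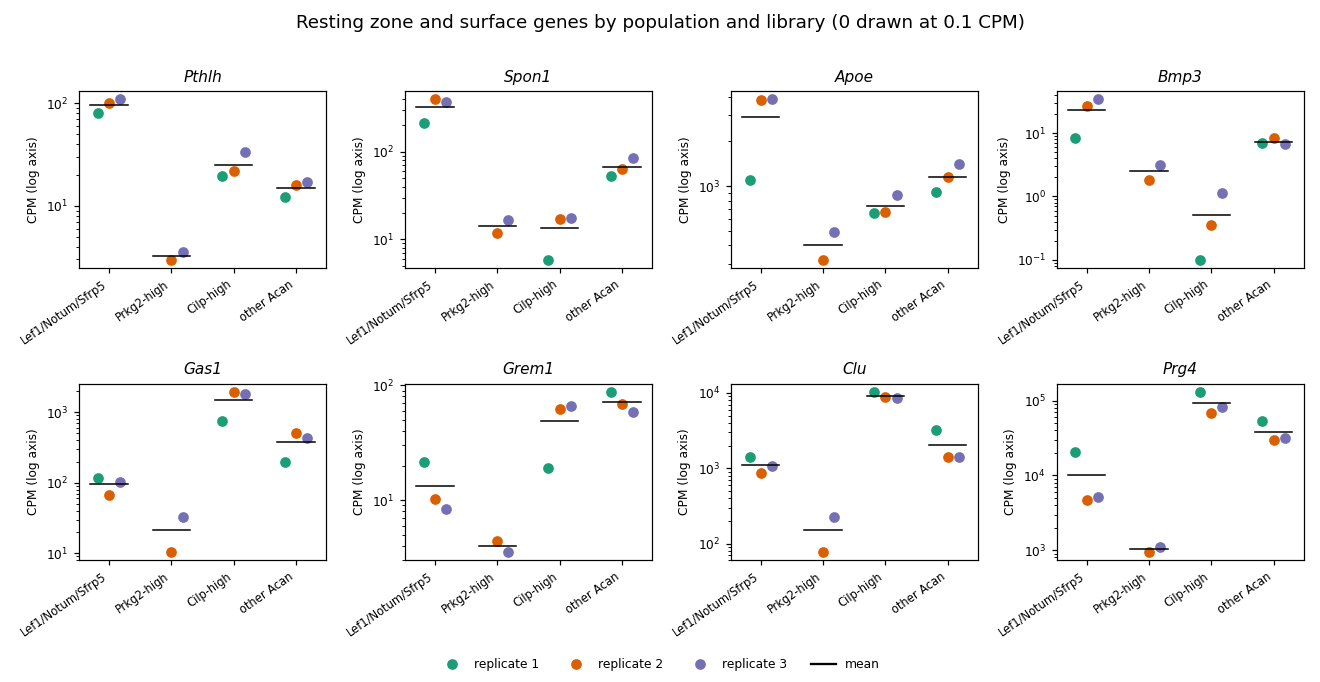
CPM (log axis) of 7 resting zone genes and of Prg4 in the Lef1/Notum/Sfrp5 cells and the 3 comparison populations, 1 point per library and a line at the mean. Pthlh and Spon1 are higher in every library of the Lef1/Notum/Sfrp5 cells than in any library of the comparison populations, while Gas1, Clu and Prg4 peak in Cilp-high cells.

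Surface genes of articular cartilage were mostly lower than in Cilp-high and other Acan cells. Of 11 tested, 6 were lower than in other Acan cells and the other 5 were not called, and 1 was higher (Cd44) and 9 lower than in Cilp-high cells, with median differences of -1.19 and -1.98 log2 units beside -0.03 and -0.04 over all genes. Against Prkg2-high cells 5 were higher and 6 were not called, with a median difference of 1.11 beside 0.03. Prg4 stood at 20769, 4673 and 5216 CPM, against 54174, 29945 and 31965 CPM in other Acan cells and 132232, 68799 and 81147 CPM in Cilp-high cells. The difference from Cilp-high cells was -3.74 ± 0.32 log2 units (adjusted p = 9.5e-07), and that from other Acan cells was -2.23 ± 0.30 (adjusted p = 1.9e-04), with the call lost without replicate 2 or without replicate 3, at -2.04 each. The level was uneven among the members. In replicates 2 and 3 the 79 and 149 members with no Lef1 UMI held Prg4 at 22975 and 15281 CPM, against 2814 and 3593 CPM in the 696 and 842 with one. In replicate 1 the 28 with a Lef1 UMI held 427 CPM, against 20769 CPM over all 32.

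Prg4 was also counted in cells that should lack it, at 63.2, 730 and 1990 CPM in the Ptprc-positive cells. After thinning to 2000 UMIs, Prg4 was found in 25.8%, 45.2% and 60.7% of the Lef1/Notum/Sfrp5 cells and in 12.6%, 34.5% and 45.3% of the Ptprc-positive cells. Against Prkg2-high cells Prg4 was 2.50 ± 0.36 log2 units higher, but 1.34 and no longer called when the 47 Cilp-high members were left out, and the call was also lost without replicate 2 (2.60) and without replicate 3 (2.62). Creb5, a transcription factor of superficial chondrocytes, stood at 149, 50.7 and 52.1 CPM and was 1.77 ± 0.27 log2 units below other Acan cells (adjusted p = 4.4e-04). Abi3bp, a matrix-associated protein, was 1.97 ± 0.20 log2 units below Cilp-high cells.

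Hypertrophy genes differed in both directions. Of 12 tested, 3 were higher (Runx2, Runx3 and Matn3) and 3 lower (Mmp13, Mef2c and Spp1) than in other Acan cells. Matn3 encodes a matrilin of cartilage matrix, Mef2c a transcription factor that drives hypertrophy and Spp1 the bone matrix protein osteopontin. The call of Matn3 was lost without replicate 1 (0.86) and without replicate 2 (1.25), that of Mef2c without replicate 2 (-0.83), and that of Spp1 without replicate 1 (-0.74) and without replicate 2 (-1.41). Against Cilp-high cells 7 were higher and 2 lower, Col10a1 and Spp1, the latter not called without replicate 1 (-0.76) or without replicate 2 (-1.42). Against Prkg2-high cells 1 was higher, Col10a1, and 3 lower, Panx3, Pth1r and Sp7, with the call of Sp7 lost without replicate 2 (-0.90) and without replicate 3 (-1.29).

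Col10a1, the collagen of hypertrophic cartilage, stood at 409.7, 89.4 and 60.1 CPM, against 43.3 and 20.8 CPM in Prkg2-high cells and 642, 365 and 416 CPM in Cilp-high cells. It was 1.62 ± 0.45 log2 units above Prkg2-high cells (adjusted p = 0.017) and 2.12 ± 0.38 below Cilp-high cells. Without the 47 Cilp-high members the difference from Prkg2-high cells was 0.23 and not called. The members with no Lef1 UMI held Col10a1 at 640 and 173 CPM in replicates 2 and 3, against 33.5 and 41.9 CPM in those with one. Runx3, a transcription factor that promotes chondrocyte maturation, stood at 230, 176 and 201 CPM, against 46.6, 39.1 and 66.1 CPM in other Acan cells and 2.44, 3.21 and 5.18 CPM in Cilp-high cells. The difference was 1.96 ± 0.19 log2 units against other Acan cells (adjusted p = 1.5e-05) and 5.46 ± 0.25 against Cilp-high cells. Against Prkg2-high cells it was 0.30 ± 0.20 and not called.

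Runx2, its paralogue, showed the same order, with 841, 471 and 521 CPM and a difference of 1.30 ± 0.17 log2 units from other Acan cells (adjusted p = 1.3e-04). By contrast, Mmp13, the collagenase of terminal hypertrophic cells, stood at 25.6, 1.70 and 2.87 CPM and was 3.67 ± 0.68 log2 units below other Acan cells (adjusted p = 0.0021). Panx3, a channel of prehypertrophic cells, stood at 0, 1.38 and 4.04 CPM, 4.35 ± 0.33 log2 units below Prkg2-high cells (adjusted p = 5.1e-06). Pth1r, the receptor of Pthlh, stood at 64.0, 115 and 107 CPM, 1.63 ± 0.17 log2 units below Prkg2-high cells (adjusted p = 2.2e-05). Ihh, the ligand of prehypertrophic cells, was at 0, 0.742 and 0.130 CPM and too low to be tested.

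Wnt targets that could be tested differed in both directions. The list held 22 genes, of which 2 were among those that set the populations and so were not tested. Of 16 tested, 1 was higher and 2 lower than in other Acan cells, and 6 were higher and 3 lower than in Cilp-high cells. Against Prkg2-high cells 6 were higher and 10 were not called. The gene higher than in other Acan cells was Ccnd1, encoding cyclin D1, at 59.7, 154 and 166 CPM, with a difference of 1.13 ± 0.24 log2 units (adjusted p = 0.0058) that fell to 0.89 and lost its call without replicate 2. The lower genes were Tnfrsf19, a receptor of the TNF family, at -2.90 ± 0.40 log2 units, and Lgr6, an R-spondin receptor, at -1.18 ± 0.24. The call of Lgr6 was lost without replicate 2 (-0.57) and without replicate 3 (-1.12). Axin2 differed from other Acan cells by -0.46 ± 0.29 log2 units (adjusted p = 0.31) and Nkd1 by 0.26 ± 0.23 (adjusted p = 0.49), neither of which was called.

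The 6 genes higher than in Prkg2-high cells were Axin2, Lgr5, Rnf43, Lgr6, Twist1 and Bambi, a decoy receptor of the BMP and TGF-β family. Axin2 was 2.18 ± 0.43 log2 units higher (adjusted p = 0.0024), but at 0.905 and 0.556 CPM there, and the call was lost without replicate 2 (2.17) and without replicate 3 (2.05). Lgr5 was 2.69 ± 0.96 log2 units higher (adjusted p = 0.049), at 0.517 and 0.185 CPM there, a call lost without replicate 2 (3.37), without replicate 3 (2.16) and by DESeq2 (2.72). Rnf43 had no UMI in Prkg2-high cells, so no fold is given. The calls of Lgr6 and of Twist1, a transcription factor of mesenchyme, were lost without replicate 2 (1.59 and 1.00) and without replicate 3 (1.02 and 1.18). Tcf7, which encodes another factor of the TCF and LEF family, stood at 4.27, 18.5 and 15.9 CPM and was 1.64 ± 0.21 log2 units above Cilp-high cells (adjusted p = 3.3e-05), a call lost without replicate 2 (1.32). Of 22 intracellular genes of the pathway, 2 were higher and 1 lower than in Cilp-high cells. By edgeR's quasi-likelihood test and by DESeq2, 0 were called against other Acan cells, where 1 was higher and 3 lower at an unadjusted p under 0.05, and 0 against Prkg2-high cells, where 7 were higher and 3 lower at that level. Ctnnb1, the gene of β-catenin, stood at 145, 154 and 165 CPM and differed from other Acan cells by 0.12 ± 0.16 log2 units.

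The ligands and receptors moved in both directions. Of 10 ligands tested, 2 were higher and 3 lower than in other Acan cells, 3 higher and 2 lower than in Cilp-high cells, and 1 higher and 1 lower than in Prkg2-high cells. Wnt7b, at 34.1, 9.76 and 11.9 CPM, was 1.65 ± 0.27 log2 units higher (adjusted p = 9.2e-04), and Wnt5b, at 72.5, 36.9 and 44.2 CPM, was 1.02 ± 0.19 higher (adjusted p = 0.0020). The call of Wnt5b was lost without replicate 2 (1.22) and without replicate 3 (0.89). Wnt9a, a ligand of the forming joint, was 1.88 ± 0.21 log2 units below Cilp-high cells (adjusted p = 1.0e-05). Of 20 receptors, co-receptors and R-spondins, 3 were lower than in other Acan cells and 17 were not called. The 3 were Fzd8 (-1.28), Lrp4 (-1.08) and Lrp5 (-1.39), and each call was lost without replicate 2, at -0.90, -1.16 and -0.67. Those of Lrp4 (-0.97) and Lrp5 (-1.10) were lost without replicate 3 as well. Against Cilp-high cells 6 receptors were higher and 2 lower. Against Prkg2-high cells 5 were higher, the frizzled genes Fzd1, Fzd5, Fzd6, Fzd7 and Fzd9, and 2 lower, the R-spondin genes Rspo3 and Rspo4. All 7 calls were lost without replicate 2 (1.28, 1.22, 1.39, 1.58, 1.44, -1.38 and -2.04), and those of Fzd5 (1.26), Fzd6 (0.83) and Fzd7 (1.41) without replicate 3.

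Of the 10 antagonists left after Notum and Sfrp5, 1 was higher and 3 lower than in other Acan cells, 4 were higher and 1 lower than in Cilp-high cells, and 6 were higher than in Prkg2-high cells and 4 not called. The highest in level was Wif1, which encodes a secreted Wnt inhibitor, at 909, 797 and 791 CPM, 3.58 ± 0.31 log2 units above Prkg2-high cells (adjusted p = 5.0e-06) and 0.06 ± 0.23 from other Acan cells. Dkk2, which encodes a ligand of LRP co-receptors, was higher than in all 3 populations, at 0, 9.76 and 8.47 CPM. Against other Acan cells its difference was 1.43 ± 0.31 log2 units (adjusted p = 0.0072). That call was lost without replicate 2 and without replicate 3 (1.44 each), and the difference was -0.48 when signature genes were counted after thinning. Sfrp2 stood at 0, 1.06 and 0.782 CPM, 3.81 ± 0.37 log2 units below other Acan cells (adjusted p = 1.7e-05).

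**Figure D3:**
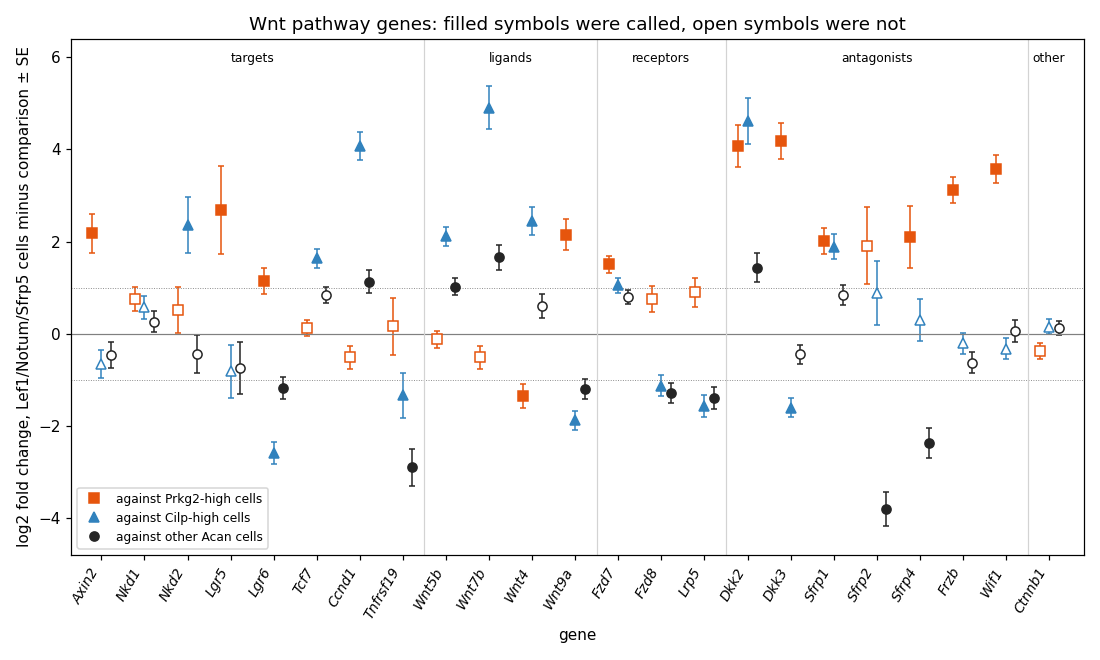
Fitted log2 fold change ± SE of 23 Wnt pathway genes (Lef1/Notum/Sfrp5 cells minus each comparison population), filled where the gene was called and open where it was not. Axin2, Nkd1 and Lgr5 have open symbols against other Acan cells, and the antagonists Dkk2, Dkk3, Frzb and Wif1 lie between 3.12 and 4.18 against Prkg2-high cells.

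Other pathways held single genes that differed. Of 11 hedgehog genes tested, 2 were higher than in other Acan cells, Gli2 and Ptch1, and 9 were not called. Against Prkg2-high cells 2 were higher, and against Cilp-high cells 2 were higher and 1 lower. Gli2, a transcription factor of the hedgehog pathway, stood at 115, 123 and 99.5 CPM against 22.4, 41.7 and 39.2 CPM in other Acan cells, and was higher than in all 3 populations, by 1.57 ± 0.15 log2 units (adjusted p = 1.3e-05), 1.16 ± 0.15 against Cilp-high cells and 2.69 ± 0.18 against Prkg2-high cells. Ptch1, the receptor and a target of the pathway, was 1.09 ± 0.16 log2 units above other Acan cells (adjusted p = 3.8e-04). Of 22 BMP and TGF-β genes, 2 were higher (Bmp7 and Tgfb2) and 5 lower than in other Acan cells, 4 higher and 3 lower than in Prkg2-high cells, and 3 higher and 8 lower than in Cilp-high cells. Of these, Gdf10, a secreted factor of the family, was lower than in all 3 populations, with a call against Prkg2-high cells (-1.07 ± 0.18) that was lost without replicate 2 (-1.08).

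Of 14 FGF genes, 3 were lower than in other Acan cells and 11 were not called. Of the 3, Spry4 and Etv4 lost their calls without replicate 2 (-1.40 and -3.13) and without replicate 3 (-1.40 and -1.79). Spry1, a feedback inhibitor of FGF signalling, stood at 0, 0.848 and 0.782 CPM, against 25.9, 9.81 and 4.09 CPM. The difference was -3.26 ± 0.46 log2 units (adjusted p = 2.9e-04). Against Cilp-high cells 1 FGF gene was higher, Fgfr1, and 5 were lower. Against Prkg2-high cells 3 were higher, Etv5, Fgf7 and Fgfr1, and 11 were not called. Fgfr1, an FGF receptor, stood at 469, 443 and 451 CPM, against 139 and 152 CPM in Prkg2-high cells and 175, 152 and 154 CPM in Cilp-high cells. It was 1.53 ± 0.20 log2 units above Prkg2-high cells (adjusted p = 1.1e-04) and 1.27 ± 0.17 above Cilp-high cells (adjusted p = 5.4e-05). Against Prkg2-high cells all 3 calls were lost without replicate 2, at 1.43 for Etv5, 1.90 for Fgf7 and 1.44 for Fgfr1, and that of Etv5 also without replicate 3 (1.39). Of 13 genes of RGS proteins and their partner tested beside Rgs6, 3 were lower than in other Acan cells and 10 were not called, while 4 were higher and 4 lower than in Cilp-high cells and 1 was higher than in Prkg2-high cells. Of the 3, Rgs2 kept its call whichever library was left out, while Rgs1 and Rgs4 lost theirs without replicate 2 (-2.94 and -5.59) and without replicate 3 (-6.50 and -3.10).

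Of 20 protease inhibitors tested, 4 were higher and 3 lower than in other Acan cells, 10 were higher and 2 lower than in Prkg2-high cells, and 4 were higher and 4 lower than in Cilp-high cells. Timp4, an inhibitor of matrix metalloproteinases, stood at 38.4, 69.5 and 63.7 CPM against 19.0, 22.2 and 23.3 CPM, a difference of 1.55 ± 0.16 log2 units (adjusted p = 2.7e-05). The α1-antitrypsin genes Serpina1c and Serpina1d were higher as well, but they are near-identical copies of Serpina1a in 1 cluster on chromosome 12, reads can be split between them, and their values are uncertain. Of 15 matrix proteases, 4 were lower than in other Acan cells and 11 were not called, 2 were higher and 4 lower than in Prkg2-high cells, and 3 were higher and 3 lower than in Cilp-high cells. Among them Adamts5, the aggrecanase, was lower than in all 3 populations, at 68.3, 11.1 and 10.6 CPM against 105, 63.3 and 47.8 CPM in other Acan cells (-2.24 ± 0.33 log2 units, adjusted p = 3.8e-04).

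Over all genes, 227 (1.49%) were higher and 29 (0.19%) lower than in each of the 3 populations. Of these, 108 higher and 13 lower genes had the same sign in every library and at least 20 CPM on average in the higher population. Ranked by their smallest difference, the 10 that led those 108 were Spock1, Gm19935, Pappa2, Efemp1, Ppp1r9a, Coch, Fras1, Gk, Trpm3 and Dapl1. Several encode extracellular proteins. Pappa2, a protease that releases insulin-like growth factors from their binding proteins, stood at 102, 114 and 132 CPM, against 30.2, 7.23 and 14.9 CPM in other Acan cells, and was 3.26 ± 0.27 log2 units higher (adjusted p = 3.5e-06). Efemp1, an extracellular matrix protein of the fibulin family, stood at 85.3, 176 and 206 CPM, against 14.7, 15.7 and 33.1 CPM, 3.01 ± 0.20 log2 units higher (adjusted p = 5.3e-07). Fras1, a protein of basement membranes, stood at 55.5, 60.5 and 68.4 CPM, against 6.04, 12.1 and 13.6 CPM, 2.40 ± 0.15 log2 units higher (adjusted p = 5.3e-07).

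For each of these 3 genes the groups did not overlap, which their choice by calls of the same sign in every library made likely. Ppp1r9a, a protein of the actin cytoskeleton, was uneven between libraries, at 299, 45.8 and 48.0 CPM, as were Coch, at 149, 26.6 and 39.2 CPM, and Gk, at 162, 45.0 and 43.1 CPM, with replicate 1 the highest. Trpm3, a cation channel, was even, at 107, 126 and 91.0 CPM, and was 2.36 ± 0.19 log2 units above other Acan cells (adjusted p = 3.2e-06). Its range over the libraries was 19.0 to 21.6 CPM in other Acan cells.

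Of the 13 lower genes ranked, the 10 that led were Adamts5, Asns, Gm13889, Npy, Sema3e, Medag, Ackr2, Mustn1, Dlx5 and Inhba. Of these, Adamts5, Asns and Sema3e kept their calls in all 3 comparisons whichever library was left out. Against Prkg2-high cells the calls of Gm13889 (-1.39), Medag (-1.31), Ackr2 (-1.76), Mustn1 (-1.35) and Dlx5 (-1.22) were lost without replicate 2, and those of Ackr2 (-1.57), Mustn1 (-1.15), Dlx5 (-1.35) and Inhba (-1.43) without replicate 3. Against other Acan cells that of Npy (-1.19) was lost without replicate 2. Sema3e, a secreted guidance protein, stood at 17.1, 22.3 and 23.6 CPM, against 34.5, 74.8 and 89.7 CPM in other Acan cells and 79.6 and 137 CPM in Prkg2-high cells (-1.64 ± 0.29 and -2.23 ± 0.30 log2 units). Dlx5, a homeobox factor that promotes chondrocyte maturation and bone formation, stood at 17.1, 9.97 and 11.1 CPM against 40.6, 32.0 and 22.3 CPM in other Acan cells (-1.31 ± 0.18 log2 units, adjusted p = 1.9e-04), a call lost without replicate 2 (-1.06), as was that against Cilp-high cells (-1.12). Inhba, the activin A subunit, had the weakest support, at 516, 164 and 131 CPM and -1.18 ± 0.38 log2 units (adjusted p = 0.049), with the call lost without replicate 1 (-0.93), replicate 2 (-1.50) or replicate 3 (-1.25).

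By their calls, cell cycle genes put the Lef1/Notum/Sfrp5 cells between the comparison populations, but summed levels did not set them above Cilp-high cells. The list summed to between 892 and 1075 CPM in the Lef1/Notum/Sfrp5 cells and to between 877 and 1461 CPM in Cilp-high cells. After thinning to 2000 UMIs, Mki67 was found in a mean of 0.676% of the former and 0.697% of the latter. Of 20 tested, 11 were lower than in other Acan cells, 9 were lower than in Prkg2-high cells and 10 were higher than in Cilp-high cells, and the others were not called. Mki67 stood at 0, 24.7 and 10.7 CPM, against 119, 84.9 and 43.2 CPM in other Acan cells, 58.2 and 36.0 CPM in Prkg2-high cells and 3.90, 5.52 and 4.75 CPM in Cilp-high cells. The difference from Prkg2-high cells was -1.53 ± 0.26 log2 units (adjusted p = 8.5e-04), and -0.49 without a call once doublet-like cells were removed. That from Cilp-high cells was 1.64 ± 0.33 (adjusted p = 0.0014), 0.97 without a call when replicate 2 was left out, and reversed to -1.75 without a call when signature genes were counted after thinning.

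Genes central to the study of these BLCs were read as well. Alcam, the sort marker, stood at 102, 31.4 and 27.2 CPM, above all 3 populations, by 1.14 ± 0.19 log2 units against other Acan cells (adjusted p = 8.4e-04), a call lost without replicate 2 (1.11), as was that against Prkg2-high cells (1.42). Itga8, the integrin gene on which the study centres, stood at 21.3, 10.2 and 12.4 CPM and did not pass the test against other Acan cells (0.51 ± 0.25 log2 units, adjusted p = 0.18), but was 3.20 ± 0.36 above Cilp-high cells (adjusted p = 1.2e-05). Mfap4, a matrix gene that the study links to Itga8-positive cells, stood at 0, 3.39 and 0.521 CPM, 3.09 ± 0.45 log2 units below other Acan cells (adjusted p = 3.6e-04).

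Levels of several genes followed the number of signature genes. Over all cells that met the other conditions, grouped by how many signature genes they held from 0 to 5, Pthlh stood at 14.5, 23.9, 32.6, 85.8, 100 and 146 CPM in replicate 2, and at 23.6, 23.6, 42.0, 101, 125 and 108 CPM in replicate 3. In both libraries the largest step lay between 2 and 3 signature genes. Spon1 climbed more evenly, from 26.6 through 205 at 2 signature genes to 452 CPM at 4 in replicate 2, and from 30.9 through 216 to 419 CPM in replicate 3. Prg4 fell from 45716 to 2338 CPM in replicate 2 and from 53239 to 4942 CPM in replicate 3. Axin2 did not climb, with 7.51 CPM at 0 signature genes and 2.18 CPM at 5 in replicate 2, and 3.71 and 3.01 CPM in replicate 3. The groups at 0 and 1 are the Cilp-high and other Acan cells, and the median depth also differed along the series, from 6644 to 13130.5 UMIs in replicate 2 and from 4342 to 8170.5 in replicate 3. The part of depth in these gradients was not tested.

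**Figure D4:**
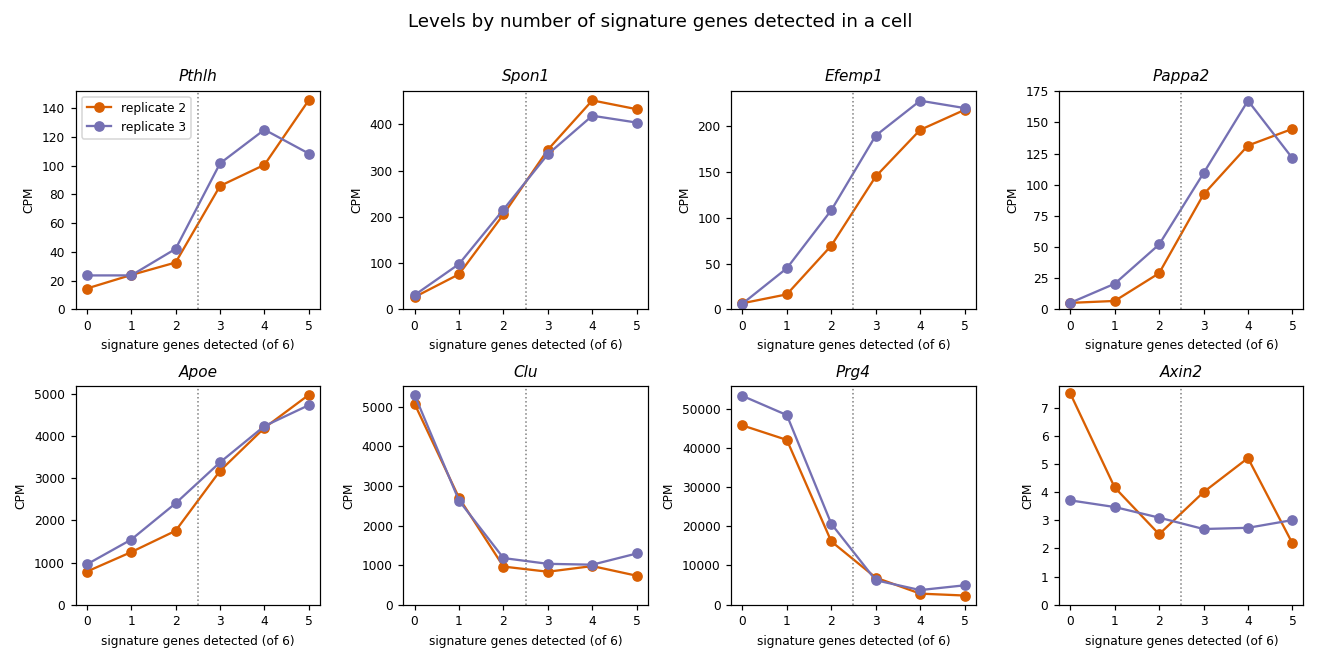
CPM of 8 genes (linear axes from 0) in cells grouped by the number of signature genes detected, for replicates 2 and 3; the dotted line marks the threshold of the rule. Pthlh, Spon1, Efemp1, Pappa2 and Apoe are higher to the right of the line than to its left in both libraries, Prg4 is lower to the right in both, Clu is level from 2 signature genes on, and Axin2 stays at or under 7.51 CPM.

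Detection of F13a1 divided the members into 1070 cells with and 728 without a UMI of it. In all 3 libraries Pthlh was higher in the cells with F13a1, at 95.4, 116 and 124 CPM against 51.9, 80.1 and 89.9 CPM, and Pappa2 stood at 127, 152 and 160 CPM against 51.9, 62.1 and 92.7 CPM. Bmp3 was higher as well in replicates 2 and 3, at 38.0 and 49.6 CPM against 12.4 and 12.8 CPM, while replicate 1 held 2 UMIs of it against 0. The opposite held for Spon1, at 70.0, 255 and 276 CPM with F13a1 against 506, 591 and 505 CPM without. Wif1, the Wnt inhibitor, stood at 725, 485 and 517 CPM with and 1283, 1228 and 1175 CPM without, and Dapl1 in replicates 2 and 3 at 7.13 and 11.4 CPM against 51.5 and 27.6 CPM. In replicate 1 both sets held 3 UMIs of Dapl1.

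Of the resting zone genes, Pthlh was thus higher on one side of this division and Spon1 on the other in each library. Bmp3 was on the side of Pthlh in replicates 2 and 3. Other genes were divided as well. Mean levels (± SD, n = 3) with and without F13a1 were 14860 ± 13903 and 1581 ± 1642 CPM for Prg4. They were 280 ± 283 and 14.5 ± 8.99 CPM for Col10a1 and 121 ± 44.4 and 47.7 ± 32.1 CPM for Gas1. Thbs4, a further surface gene, went the other way (200 ± 109 and 295 ± 92.8 CPM). F13a1 was also found in 26.4%, 14.1% and 13.1% of Cilp-high cells. The part of such cells in the division was not tested. Cells without F13a1 had to hold 3 of the other 5 signature genes, so their higher Rgs6 (609, 352 and 315 CPM against 210, 198 and 186 CPM) follows in part from the rule. Dsc3, a desmosomal cadherin, stood at 13.9 and 12.2 CPM without F13a1 and at 0.549 and 1.56 CPM with it in replicates 2 and 3, and at 0 in both sets of replicate 1. The genes of this division were picked after their values were seen, and no test was made. Median depths of the sets were close, at 11214 UMIs with and 12619 without F13a1 in replicate 2 and 7254.5 and 7585 in replicate 3.

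**Figure D5:**
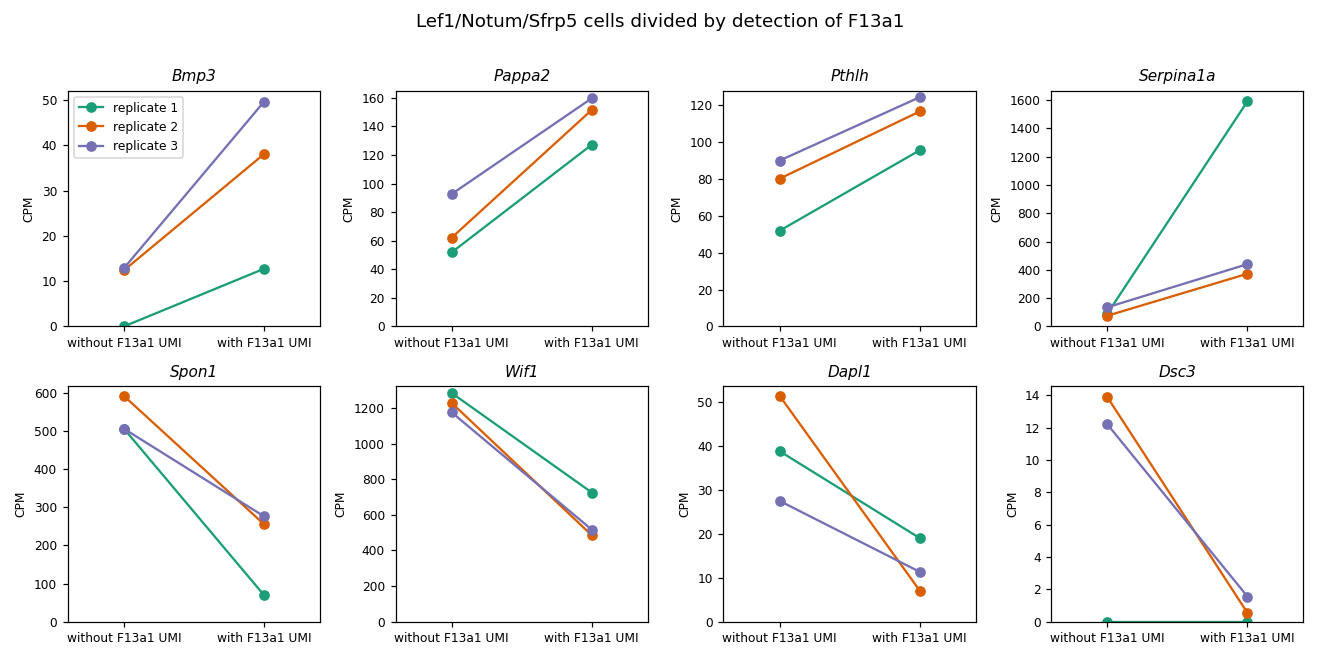
CPM (linear axes from 0) of 8 genes in Lef1/Notum/Sfrp5 cells without and with an F13a1 UMI, 1 line per library. In each library Pappa2, Pthlh and Serpina1a are higher with F13a1 and Spon1 and Wif1 are higher without it. In replicates 2 and 3 Bmp3 is higher with F13a1 and Dapl1 without it, while in replicate 1 both genes rest on at most 3 UMIs a set and Dsc3 is at 0.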

How the data were processed

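Single-cell libraries were made with the 10x 3′ v3.1 kit, and per the labels and file headers the authors counted UMIs per gene and barcode with Cell Ranger 7.1.0 on mm10; the deposited values are raw counts. Of 20307 barcodes, 825 with under 200 genes or over 20% mitochondrial UMIs were removed. The study's text gives a larger number of cells than the barcodes held here, and the filter behind that is not given in the sources used here, so shares refer to these barcodes. The libraries held 20985636, 79905165 and 69890252 UMIs, and 3 UMIs among the members of replicates 1, 2 and 3 correspond to 12.8, 0.318 and 0.391 CPM. No doublet caller was run; an alternative left out doublet-like cells. Populations were set by UMI thresholds, with no clustering. The thresholds, members and gene lists were chosen with earlier results of these data known.

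Counts were summed per replicate and population where at least 10 cells were present, and tested with edgeR 4.0.16 (quasi-likelihood, TMM, Benjamini-Hochberg adjustment over all genes tested) under R 4.3.3. Left out were 16 genes: those that set the populations, and Serpina1a, a given marker of the members that set none. Populations of 1 replicate came from the same cell suspension, so the replicate was kept as a block. Sums were tested on simulated counts before use. From each gene list, up to 4 called genes per direction with the largest change against other Acan cells were to be named, list genes without a call could be given with values, and over all genes the 10 higher and 10 lower called in all 3 comparisons with at least 20 CPM. Further list genes, such as Col10a1 and the genes listed for Prkg2-high cells, and those of the F13a1 division, were chosen after their values were seen. Alternatives included DESeq2 1.42.0, other scaling, other member rules and leaving out each replicate.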

Additional observations from a re-analysis of the deposited data

Results flagged for a closer look

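A further 803 barcodes held at least 3 signature genes and met every condition but the limit on Prkg2, and so entered none of the comparisons. They had a median of 15632 UMIs, against 5687.5 to 11739 for the members of the 3 libraries. Without the Prkg2 limit the population held 2601 cells, a mean share of 11.0% of the cells kept, and 1057 in place of 2317 genes were called against Prkg2-high cells. Whether these barcodes are single cells, doublets or deeper cells of the same kind was not tested.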

How the results depend on the processing

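The mean share of Lef1/Notum/Sfrp5 cells was 7.49% and ran from 2.73%, with signature genes counted after thinning, to 12.6%, with 2 signature genes required, and from 5.48% to 10.6% when each library was left out. Genes called against Prkg2-high, Cilp-high and other Acan cells numbered 2317, 3097 and 1447. With no fold threshold they were 4413, 5645 and 2599. Leaving out each library gave 394 to 2559, 1501 to 3409 and 551 to 1528. With signature genes counted after thinning 658 were called against other Acan cells, and with no Prkg2 limit, chosen after seeing the data, 1057 against Prkg2-high cells. Since the populations of a replicate share a suspension, the fit without the replicate block was the alternative: it called 1502 against Prkg2-high cells and 848 against other Acan cells, and 37 values of single genes named in the text lost their call, among them Apoe (1.38), Ccnd1 (1.13), Dkk2 (1.53) and Mmp13 (-5.21) against other Acan cells and Axin2 (2.08) against Prkg2-high cells. Calls of such single values were lost for 42 after thinning, 36 with no Prkg2 limit, 20 with doublet-like cells removed, 15 with 4 signature genes required, 9 with DESeq2, 8 with cycling cells removed, 7 without Cilp-high members and 2 with other size factors. Without replicate 1, 8 were lost. Leaving out replicate 2 lost more of these calls than any other alternative, and left Prkg2-high cells with a lone sum. The share of higher calls against other Acan cells was 34.1%, and 46.4% with no fold threshold. Direction reversed for Mki67 (-1.75) and Top2a (-0.24) against Cilp-high cells, Dkk2 (-0.48) and Matn3 (-0.12) against other Acan cells and Col10a1 (-0.0031) against Prkg2-high cells after thinning, for Panx3 (-0.028) against Cilp-high cells with 4 signature genes required, and for Mmp13 against Cilp-high cells without replicate 2 (-1.88 to 2.02 over the libraries left out). The cause was not tested. With 32 cells in replicate 1, levels under 12.8 CPM could not be measured there. Fits without replicate 2 or 3 rest on 2 residual degrees of freedom and assume that a lone sum varies like the other populations.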
